A study of Mus musculus with 15 samples.

Results

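10 genes that code for bridging molecules, receptors and an adaptor in the clearance of apoptotic cells were followed through the RNA-sequencing libraries of silica-treated macrophages. They were chosen by symbol for their known role, at a time when earlier results of these data were known. They are Gas6, Pros1, Mfge8, Axl, Mertk, Itgav, Itgb5, Cd300lf, Lrp1 and Elmo1. All 10 were found among the 57186 genes of the count table, and all 10 were among the 19839 genes that had at least 10 counts summed over the libraries and were tested.

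The libraries came from RAW 264.7, an established macrophage-like line of mouse origin, and each of the 5 groups held 3 of them. All were collected at 6 h. One group was left nontreated (Control) and the others received silica nanoparticles. SNP100 and SNP50 are nonporous spheres, MSNP is mesoporous and HMSNP is mesoporous with a hollow core. By the study's methods, the doses were 50 µg/mL for SNP100, 25 µg/mL for SNP50 and 200 µg/mL for both MSNP and HMSNP, and the nominal diameters were 100, 50, 100 and 100 nm in that order. Only MSNP and HMSNP were therefore compared at the same dose, time and nominal diameter. Nothing in the labels says that the replicates were separate cultures, so the spread between libraries may be technical. The p-values rest on a spread per gene that was estimated over the libraries of all 5 groups. For a gene that spreads more in the controls than in the treated groups, this shared spread is too small for comparisons with the controls. It is then too large for comparisons between treated groups. The library names also carry a number prefix that is different for each group and whose meaning the labels do not give, so whatever it marks and the treatment cannot be told apart.

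Efferocytosis is the uptake of dying cells by phagocytes. Phosphatidylserine exposed on the dying cell is either bound directly by a receptor or bridged to one by a soluble protein. Gas6 and protein S bridge it to the TAM receptor kinases Tyro3, Axl and Mertk, Mfge8 bridges it to the integrins αvβ3 and αvβ5, and the signal then reaches the actin cytoskeleton through Elmo1 and its Dock partners. Macrophages carry most of these molecules, and the route also limits inflammatory signalling.

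Total counts per library lay between 29369934 and 42617812. Values are given as CPM on TMM-scaled library sizes, and calls were made where the Benjamini-Hochberg adjusted p over all tested genes, from the quasi-likelihood test of edgeR, was below 0.05. All folds below are log2 fold changes from that fit, and ± before n = 3 is the SD. In the controls, 9 of 10 macrophage markers had a mean of at least 1 CPM, and the summed level of the 10 lay between 13486 and 20480 CPM over the libraries. The summed markers of fibroblasts, epithelial cells, endothelial cells and lymphocytes stayed under 1 CPM in every library. Those of dendritic cells lay between 2.37 and 4.14 CPM and were mostly Zbtb46, and those of osteoclasts, a lineage this line can enter, lay between 38.6 and 60.4 CPM and were mostly Acp5. Control replicate 3 stood apart. Among the controls, its short genes were higher and its long genes lower. Its median log2 deviation within the control group was 0.61 in the shortest and -0.60 in the longest length class. Control replicate 2 leaned the other way (-0.38 and 0.42). Within the treated groups, the largest such deviation was 0.143, in the shortest class of SNP50 replicate 1. Long members such as Itgav, Lrp1 and Elmo1 spread widely among the controls. So did Mertk, a shorter member with 4808 bases of exon, at 4.40 to 8.93 CPM. Where leaving out a control changed a member's call or moved a called value by over 1.5 times, the value without it is given. This holds for comparisons with the controls and between HMSNP and MSNP. For further genes, some lost calls are given only as a number of alternatives or by the library left out. In bulk RNA, fewer cells that express a gene and less RNA per cell cannot be told apart.

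The upstream windows of the member that rose most (Gas6) and the member that fell most (Itgav) are shown with that of Dnase2a. This gene of the phagosome list has a window that matches the letters of a long E-box and of an interferon-stimulated response element. Whether any factor binds at such matches was not tested. Dnase2a encodes the lysosomal DNase that digests the DNA of engulfed cells and was chosen for this after its values were seen. Each window is the 250 bases upstream of the annotated start in GRCm39, written 5′ to 3′ on the gene's own strand, with capitals marking the matches described below.

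Gas6 (chr8:13544825-13545074, minus strand): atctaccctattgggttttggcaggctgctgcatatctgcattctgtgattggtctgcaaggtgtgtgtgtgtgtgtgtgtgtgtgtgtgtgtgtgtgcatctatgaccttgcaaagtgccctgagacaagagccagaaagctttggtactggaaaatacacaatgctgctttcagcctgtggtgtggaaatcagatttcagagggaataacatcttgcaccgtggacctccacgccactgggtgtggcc
Itgav (chr2:83554153-83554402, plus strand): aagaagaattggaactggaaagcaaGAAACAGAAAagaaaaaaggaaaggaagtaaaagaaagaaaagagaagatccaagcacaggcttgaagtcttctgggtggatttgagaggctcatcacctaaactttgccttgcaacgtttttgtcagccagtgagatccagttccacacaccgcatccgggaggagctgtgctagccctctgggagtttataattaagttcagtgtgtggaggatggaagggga
Dnase2a (chr8:85634939-85635188, plus strand): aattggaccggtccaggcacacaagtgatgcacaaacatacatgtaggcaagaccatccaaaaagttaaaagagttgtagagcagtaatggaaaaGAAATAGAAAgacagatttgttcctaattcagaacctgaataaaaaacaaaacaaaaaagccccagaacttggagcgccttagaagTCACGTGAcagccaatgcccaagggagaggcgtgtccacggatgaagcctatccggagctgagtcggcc

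Motifs were searched on both strands from 250 bases before to 50 bases after the start of 21770 protein-coding genes. The E-box core CACGTG was in 7.81% of all these promoters, in 0 of the 10 members and in 11 of 107 other genes of the route. Its longer form TCACGTGA, which contains CACGTG and so overlaps it, was in 1.11% of all promoters, in 0 members and in 3 of the 107, namely Calr, Dnase2a and Rab5a. In the Dnase2a window it lies at -69, and a match to the interferon-stimulated response element starts at -155. The AP-1 motif TGANTCA (7.14% of promoters) was in 0 members, the interferon-stimulated response element (3.84%) in 1, Itgav at -225, and the PU.1 motif GAGGAAGT (3.07%) in 1, Cd300lf at the start itself. The Gas6 window shown above holds no capitals, which says only that none of these 5 motifs occurs in it.

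Of the bridging molecules, Gas6 changed most, and it separated the particles into 3 levels. Gas6, a vitamin K-dependent ligand of all TAM receptors, lies on the minus strand at chr8:13515371-13544824 and had 1556 to 10544 counts per library. The controls had 47.4, 49.4 and 45.8 CPM, and the HMSNP-treated libraries had 47.0, 49.4 and 47.4 CPM. SNP100 gave 75.0, 79.5 and 70.6 CPM and SNP50 gave 82.0, 79.9 and 73.7 CPM. MSNP gave 282, 285 and 275 CPM. The HMSNP-treated libraries overlapped the controls, both nonporous groups lay above every control and overlapped each other, and MSNP lay far above all the rest. Against the controls Gas6 rose by 2.56 (SE 0.068, adjusted p 2.63e-12) in the MSNP-treated group, which is 5.90-fold. It rose by 0.66 (SE 0.065, adjusted p 4.00e-04) in the SNP100-treated and by 0.72 (SE 0.065, adjusted p 9.09e-05) in the SNP50-treated group. For HMSNP the difference was 0.01 with a 95% interval from -0.13 to 0.15 (adjusted p 0.937). At the same dose, the difference between HMSNP and MSNP was -2.55 (SE 0.068, adjusted p 6.02e-12). SNP50 and SNP100, whose doses differ, were 0.07 apart with a 95% interval from -0.07 to 0.20 (adjusted p 0.903). In fits restricted to the 6 libraries compared, the adjusted p of Gas6 became 0.276 for SNP100 and 0.306 for SNP50, and neither was called.

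**Figure D1:**
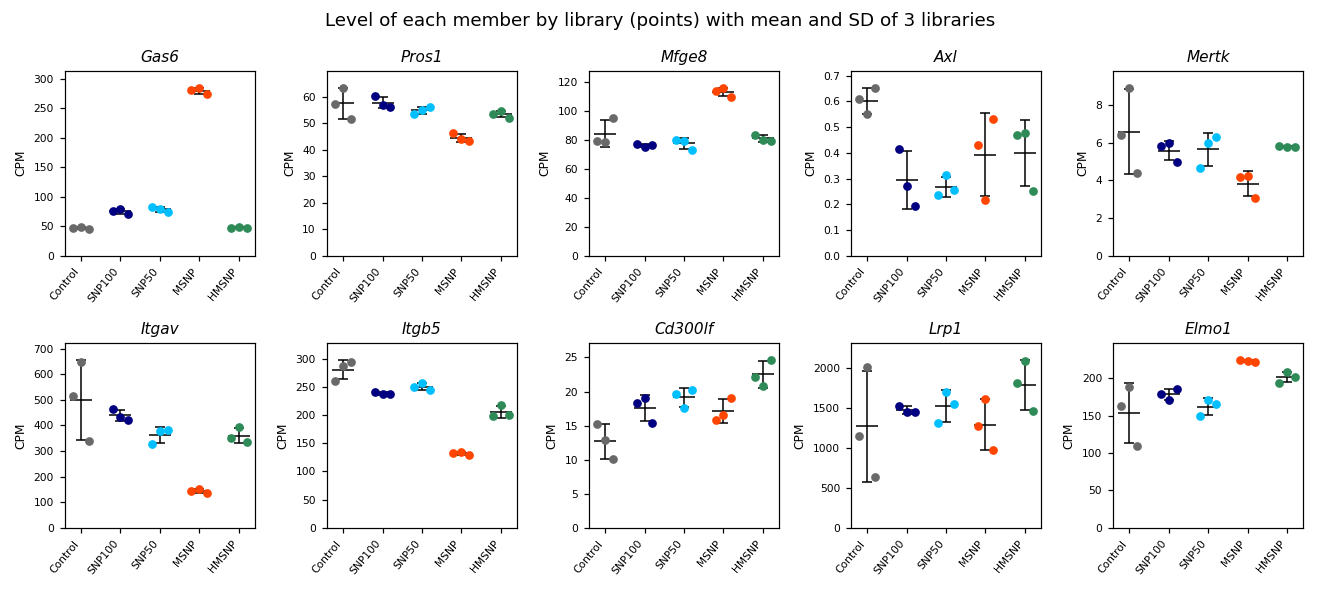
Level of the 10 members in CPM (vertical axes, each from 0) in the 5 groups (horizontal axes), where coloured points are libraries and black bars are the mean and SD of 3 libraries. Gas6 sat at 275 to 285 CPM under MSNP and at 45.8 to 49.4 CPM in the control and HMSNP libraries, whereas Itgav and Itgb5 were lowest under MSNP.

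The genes whose pattern was most like that of Gas6 were picked by Pearson's r of log2 CPM over the 15 libraries, among 11539 genes with a mean of at least 1 CPM. These libraries share 5 groups, so r mostly describes the group means and carries no test. The highest were Naglu (0.996), Nek6 (0.995), Mfsd12 (0.995), Cd200r4 (0.994) and Spdl1 (0.994). Naglu, a lysosomal enzyme of heparan sulfate breakdown, had a mean of 62.0 CPM in the controls, 76.2 with SNP100, 79.6 with SNP50, 143 with MSNP and 61.0 with HMSNP. Cd200r4, a member of the CD200 receptor family, had 5.66 CPM in the controls, 43.8 CPM with MSNP and 4.96 CPM with HMSNP. The most opposite were Tle1 (-0.989), Trib1 (-0.988) and Arhgef10l (-0.988), and Trib1, a pseudokinase, had a mean of 30.9 CPM in the controls and 4.30 CPM with MSNP.

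Pros1 encodes protein S, the other vitamin K-dependent TAM ligand, and moved the opposite way (chr16:62674275-62749710, plus strand). The controls had 57.4, 63.6 and 51.8 CPM, SNP100 had 60.2, 57.0 and 56.4 CPM and SNP50 had 53.6, 55.1 and 56.0 CPM. With MSNP the values were 46.2, 44.1 and 43.3 CPM, and with HMSNP they were 53.5, 54.7 and 52.2 CPM. Only the MSNP libraries lay below every control. Pros1 fell by 0.37 with MSNP (SE 0.073, adjusted p 0.00152), a call that was lost with only those 6 libraries in the model (adjusted p 0.0715). HMSNP was 0.26 above MSNP (SE 0.073, adjusted p 0.0173). That call was lost without MSNP replicate 2 (adjusted p 0.0780) or 3 (0.0907) and without HMSNP replicate 1 (0.0583) or 2 (0.0647). The other groups differed from the controls by 0.01, -0.07 and -0.11 for SNP100, SNP50 and HMSNP, with no call.

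Mfge8, the bridge from phosphatidylserine to αv integrins, rose with MSNP (chr7:78783515-78798825, minus strand). The controls had 79.4, 78.2 and 95.1 CPM, of which the highest was Control replicate 3. SNP100 had 77.0, 75.2 and 76.4 CPM and SNP50 had 80.2, 79.3 and 73.3 CPM. MSNP had 114, 116 and 110 CPM (109.9 in the last), above every other library, and HMSNP had 83.6, 80.2 and 79.0 CPM. The rise with MSNP was 0.43 (SE 0.075, adjusted p 5.60e-04), HMSNP differed from MSNP by -0.48 (SE 0.075, adjusted p 1.92e-04), and the other 3 treatments were within 0.15 of the controls with no call.

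The TAM receptors had few counts. Axl, on chr7:25456535-25488329 (minus strand), had too few counts for a firm comparison, with 7 to 25 counts per library and 207 in all. Its counts were 20, 19 and 25 in the controls, 16, 10 and 7 with SNP100, 7, 11 and 8 with SNP50, 13, 8 and 18 with MSNP and 16, 18 and 11 with HMSNP. In CPM the control mean was 0.603 ± 0.0510 (SD, n = 3), and every treated library lay below every control. None of the 4 differences was called. They were -1.02 for SNP100 (SE 0.345, adjusted p 0.269), -1.15 for SNP50 (SE 0.360, adjusted p 0.168), -0.63 for MSNP and -0.61 for HMSNP, and the interval for MSNP ran from -1.35 to 0.09. At this depth, a difference of the size seen for Mfge8 was not detectable.

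Mertk, the TAM receptor best known from macrophage clearance, was low but countable with 103 to 309 counts per library (chr2:128540729-128645080, plus strand). The controls spread widely at 6.42, 8.93 and 4.40 CPM. SNP100 had 5.80, 5.96 and 4.98 CPM, SNP50 had 4.66, 6.01 and 6.30 CPM and HMSNP had 5.82, 5.78 and 5.75 CPM, all within the control range. MSNP had 4.16, 4.24 and 3.05 CPM, below every control. Mertk fell by 0.78 with MSNP (SE 0.210, adjusted p 0.0133). That call rested on single libraries, since the difference was -0.64 without MSNP replicate 3 (adjusted p 0.0807) and -0.50 without Control replicate 2 (adjusted p 0.0506), and it was lost with only the 6 libraries in the model (adjusted p 0.119). HMSNP lay 0.60 above MSNP (SE 0.210, adjusted p 0.0592), with no call. That difference was 0.61 (adjusted p 0.0127) without Control replicate 2 and 0.59 (adjusted p 0.00433) without Control replicate 3. The controls enter it only through the shared spread, the normalization, the count filter and the adjustment over all genes. Tyro3, the remaining TAM receptor and no member of the chosen set, had 20 to 62 counts per library and a mean of 1.46 CPM in the controls against 0.761 CPM with MSNP. It fell by 0.94 with MSNP (SE 0.229, adjusted p 0.00739).

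**Figure D2:**
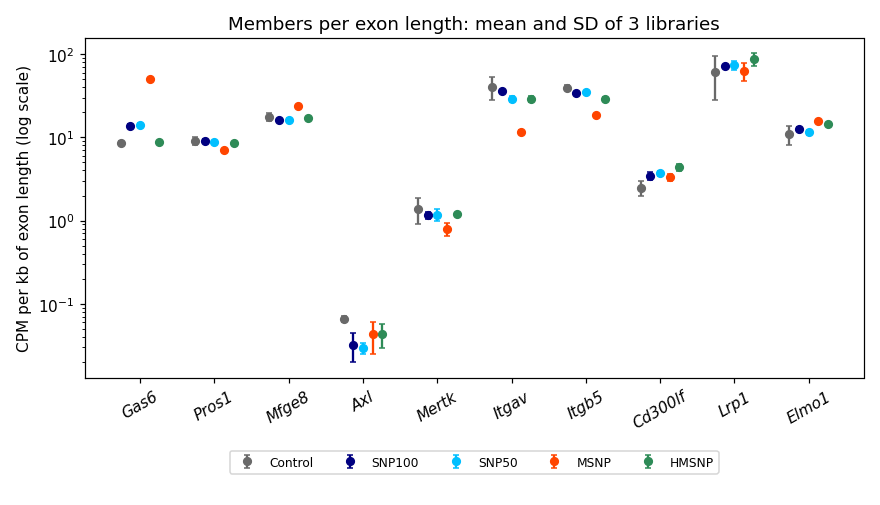
Mean level of each member per kb of exon length (vertical axis, log scale, CPM per kb) in the 5 groups (colours), with bars for the SD of 3 libraries. Axl was the lowest at 0.0657 CPM per kb in the controls, and Gas6 reached 51.0 CPM per kb with MSNP.

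Per kb of annotated exon, the controls carried far more integrin than TAM receptor RNA. The highest control level was that of Lrp1, at 62.0 ± 34.1 CPM per kb (SD, n = 3), followed by Itgav at 40.6 ± 12.6 and Itgb5 at 39.7 ± 2.44 CPM per kb. These neighbours did not differ beyond their spread. Mfge8 had 17.7 ± 1.98, Elmo1 11.0 ± 2.88, Pros1 9.11 ± 0.934 and Gas6 8.64 ± 0.320 CPM per kb, where the last 3 again lay within each other's spread. Cd300lf (2.47), Mertk (1.37) and Axl (0.0657 CPM per kb) followed. With MSNP, Gas6 rose to 51.0 ± 0.929 CPM per kb, next to Lrp1 at 62.9 ± 15.6, while Itgav stood at 11.7 ± 0.584 and Itgb5 at 18.7 ± 0.370 CPM per kb. All annotated exons were counted as length, so a gene that uses a short transcript is understated on this scale.

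Both integrin members, the αv and β5 chains of a Mfge8 receptor, fell with MSNP. Itgav encodes the αv chain (chr2:83554403-83637260, plus strand). The controls had 515, 648 and 338 CPM, SNP100 had 464, 434 and 422 CPM and SNP50 had 326, 378 and 382 CPM. MSNP had 143, 152 and 137 CPM, and HMSNP had 352, 392 and 334 CPM. The MSNP libraries lay below all others, and the remaining treated libraries overlapped the controls through Control replicate 3. Itgav fell by 1.80 with MSNP (SE 0.167, adjusted p 9.97e-07), a 3.47-fold drop, and HMSNP was 1.32 above MSNP (SE 0.165, adjusted p 2.41e-05). In the other groups the difference from the controls depended on which controls were kept and on the correction for length. With all 3 controls it was -0.48 for HMSNP (adjusted p 0.104), -0.47 for SNP50 (0.230) and -0.18 for SNP100 (0.719). Without Control replicate 3, these became -0.69 (6.03e-05), -0.69 (1.09e-04) and -0.40 (0.0141), while without Control replicate 2 they were -0.23, -0.24 and 0.05, with no call. With all 3 controls and an offset for each library's trend with exon length they were -0.61 (adjusted p 6.70e-04), -0.48 (0.0114) and -0.26 (0.237).

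Itgb5, the β5 chain that pairs with αv, was tighter across the controls (chr16:33649988-33771137, plus strand). They had 261, 287 and 294 CPM, SNP100 had 241, 237 and 237 CPM and SNP50 had 249.7, 256 and 243 CPM. MSNP had 132, 135 and 129.7 CPM and HMSNP had 198, 217 and 201 CPM. Every treated library lay below every control, with MSNP lowest and HMSNP between MSNP and the nonporous groups. Itgb5 fell by 1.08 with MSNP (SE 0.062, adjusted p 4.23e-09) and by 0.45 with HMSNP (SE 0.061, adjusted p 4.43e-04), and HMSNP was 0.63 above MSNP (SE 0.061, adjusted p 1.71e-06). The HMSNP call was lost with only the 6 libraries in the model (adjusted p 0.154). SNP100 (-0.24, adjusted p 0.0985) and SNP50 (-0.17, adjusted p 0.257) were not called. For SNP100, DESeq2 (adjusted p 0.00238) and the fit without Control replicate 3 (-0.20, adjusted p 0.0241) called the same difference.

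**Figure D3:**
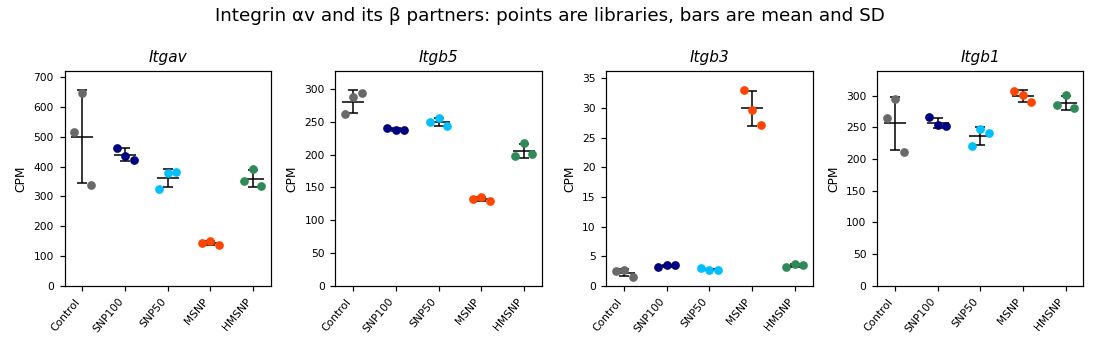
Level in CPM (vertical axes, each from 0) of the integrin αv gene and the β chain genes with counts, by group, where points are libraries and bars the mean and SD of 3 libraries. With MSNP, Itgav and Itgb5 fell to means of 144 and 132 CPM while Itgb3 rose from 2.21 to 29.9 CPM.

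The other β partners of αv did not follow Itgb5. Itgb3, the β3 chain, had 2.50, 2.66 and 1.48 CPM in the controls and 33.0, 29.7 and 27.2 CPM with MSNP, with no overlap. It rose by 3.76 (SE 0.160, adjusted p 2.38e-10), and HMSNP differed from MSNP by -3.13 (SE 0.152, adjusted p 9.66e-10). HMSNP had 3.11, 3.66 and 3.44 CPM and was 0.63 above the controls (adjusted p 0.0419), a call lost in 15 of 23 alternatives, among them the omission of each single library other than Control replicates 1 and 2. Without Control replicate 3 that difference was 0.40 (adjusted p 0.0541). On the per-kb scale Itgb3 with MSNP (4.53 CPM per kb) was still below Itgb5 (18.7 CPM per kb). Itgb1, the β1 chain, had means of 256 CPM in the controls and 299 CPM with MSNP, with no call, and Itgb8 and Itgb6 had 0 counts in all libraries.

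Of the other receptors, Cd300lf was the member that HMSNP raised. Cd300lf binds phosphatidylserine directly and belongs to a receptor family with both activating and inhibitory forms (chr11:115007040-115024818, minus strand, 386 to 1076 counts per library). The controls had 15.2, 12.8 and 10.0 CPM (10.05 in the last), SNP100 had 18.3, 19.0 and 15.5 CPM and SNP50 had 19.7, 17.6 and 20.3 CPM. MSNP had 15.8, 16.6 and 19.1 CPM, and HMSNP had 22.2, 20.8 and 24.7 CPM. Every treated library lay above every control, and the HMSNP libraries lay above all others. Cd300lf rose by 0.83 with HMSNP (SE 0.134, adjusted p 0.00190), a call lost only in the 6-library fit (adjusted p 0.126). The rise of 0.60 with SNP50 (SE 0.135, adjusted p 0.0445) was lost in 16 of its 23 alternatives, where its adjusted p ranged from 0.00288 to 0.616, and 13 of these left out 1 library. Without Control replicate 2 it was 0.61 (adjusted p 0.0810). The rise of 0.44 with MSNP (adjusted p 0.0300) was lost without MSNP replicate 2 (0.0642) or 3 (0.127). HMSNP was 0.39 above MSNP (adjusted p 0.0490), which was lost in 13 of 23 alternatives, 10 of them leaving out 1 library (highest adjusted p 0.201, without MSNP replicate 1). SNP100 was 0.47 above the controls (adjusted p 0.153), with no call.

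The 5 tested relatives of Cd300lf were not called with HMSNP, although all 5 fitted differences from the controls lay above 0 there, with a median of 0.15. The mean with HMSNP was the highest of the 5 groups for Cd300lb (273 CPM), Cd300ld (194 CPM), Cd300e (2.35 CPM) and Cd300lg (2.40 CPM). Cd300a, an inhibitory phosphatidylserine receptor, rose by 0.45 with MSNP (SE 0.087, adjusted p 0.00119), from a mean of 128 to 176 CPM. Cd300e, an activating receptor of monocytes, fell by 1.32 with MSNP (SE 0.225, adjusted p 4.33e-04), from 1.76 to 0.710 CPM. Cd300lb had 261 CPM in the controls and 233 CPM with MSNP, and Cd300ld had 191 and 144 CPM, with no call in either. Cd300lg had 2.15 CPM in the controls and 1.90 CPM with MSNP, and Cd300ld2 had at most 1 count per library and was not tested.

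Lrp1, a large scavenger receptor that takes up cells tagged with calreticulin, was the most abundant member and the least certain (chr10:127374012-127457017, minus strand). The controls had 1153, 2020 and 639 CPM. SNP100 had 1529, 1447 and 1445 CPM, SNP50 had 1313, 1705 and 1557 CPM, MSNP had 1274, 1618 and 978 CPM and HMSNP had 1813, 2092 and 1466 CPM. All the groups overlapped the controls, whose SD was 698 CPM. No difference from the controls was called, and the largest was 0.49 with HMSNP (95% interval -0.13 to 1.12, adjusted p 0.309). Without Control replicate 2 it became 1.02 (adjusted p 0.0106), and without Control replicate 3 it became 0.17 (adjusted p 0.698). At 20494 bases of exon, Lrp1 was the longest member, and without Control replicate 3 the differences in the other groups turned to -0.11 with SNP100, -0.06 with SNP50 and -0.29 with MSNP, none of them called.

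Elmo1, the adaptor that with Dock proteins activates Rac in the engulfing cell, was raised by MSNP (chr13:20274428-20792523, plus strand). The controls had 163, 189 and 109.6 CPM, SNP100 had 179, 172 and 186 CPM and SNP50 had 149.8, 171 and 165 CPM. MSNP had 225, 223 and 222 CPM, and HMSNP had 195, 208 and 202 CPM. Both porous groups lay above every control, and MSNP lay above all other libraries. The rise with MSNP was 0.54 (SE 0.136, adjusted p 0.00928) and was lost with only the 6 libraries in the model (adjusted p 0.123). It was 0.71 without Control replicate 2 and 0.35 without Control replicate 3, and was called in both. For HMSNP the difference was 0.39 (adjusted p 0.110). Without Control replicate 3 it was 0.19 (adjusted p 0.0796), and it was called without Control replicate 2 (0.58, adjusted p 0.00751) and with an offset for exon length (0.22, adjusted p 0.0388). Between HMSNP and MSNP, Elmo1 was not called with all libraries. It was called there without Control replicate 3 (-0.16, adjusted p 0.0465) and with the length offset (-0.18, adjusted p 0.0389). Dock1, its classical partner, rose by 0.65 with MSNP (adjusted p 0.0338), a call lost in 9 alternatives, among them the omission of any 1 MSNP library or of Control replicate 1 (0.70, adjusted p 0.0622). Without Control replicate 3 it was 0.38, still called. Dock2 had 290 CPM in the controls and 358 CPM with MSNP, Elmo2 had 50.2 and 51.3 CPM and Elmo3 had 2.01 and 1.67 CPM, with no call.

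**Figure D4:**
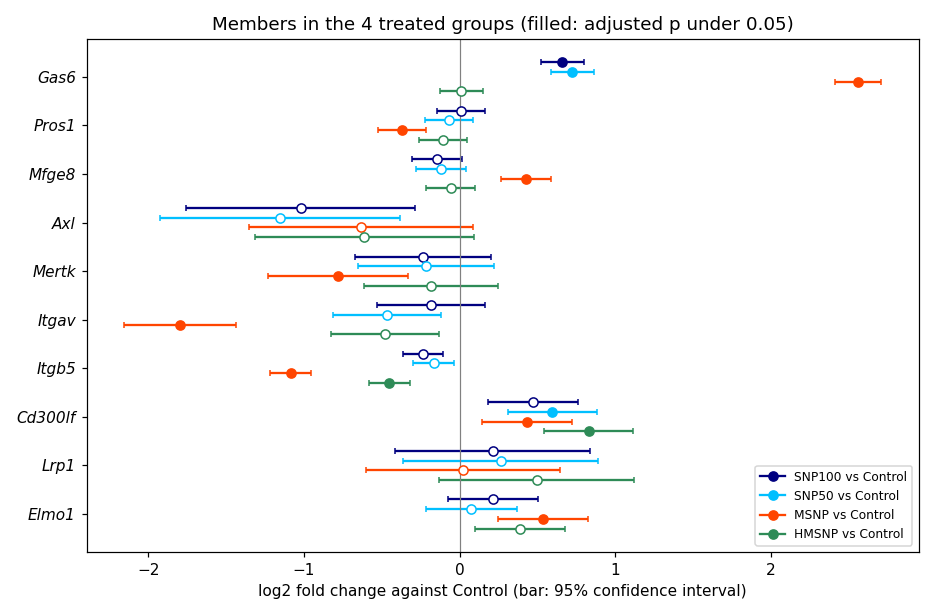
log2 fold change of each member against the controls (horizontal axis) in the 4 treated groups (colours), with bars for 95% confidence intervals and filled points for calls at 0.05 on the adjusted p of edgeR's quasi-likelihood test. Filled points are 8 for MSNP, from -1.80 for Itgav to 2.56 for Gas6, and 1 or 2 for each other treatment.

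The members were chosen with earlier results of these data known, so the shares of all genes given here describe the counts and test nothing. Counted over the members, MSNP called 8 of 10, where 22.8% of all tested genes were called. Of these, 4 rose (Gas6, Mfge8, Cd300lf and Elmo1, beside 11.8% of all genes) and 4 fell (Pros1, Mertk, Itgav and Itgb5, beside 11%). HMSNP called 2 against 5.16% of all genes, namely Cd300lf up (2.46% of all genes) and Itgb5 down (2.7%). SNP50 called 2 against 1.41%, Gas6 and Cd300lf, both up (0.454%), and 0 down (0.958%). SNP100 called 1 against 0.912%, Gas6, up (0.509%), and 0 down (0.403%). The shares of all genes moved with single libraries, from 2.51 to 25.2% for HMSNP, 0.443 to 18.9% for SNP50, 0.290 to 5.16% for SNP100 and 17.4 to 33.2% for MSNP when 1 library was left out. The highest came without Control replicate 2 for HMSNP and MSNP and without Control replicate 3 for the nonporous groups. These comparisons share the control libraries. Groups that did not overlap with the controls were seen for 9 members with MSNP (33.2% of all genes), 5 with SNP100 (12.5%), 4 with SNP50 (14.1%) and 4 with HMSNP (22.9%). The median difference over the members was -0.17 with MSNP, -0.07 with SNP100, -0.09 with SNP50 and -0.08 with HMSNP, beside -0.05, -0.02, 0.00 and -0.04 over all tested genes, since the members moved in both directions.

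At the matched dose, HMSNP and MSNP differed in 6 of 10 members, beside 20.2% of all tested genes, and did not overlap in 8, beside 45.3%. Itgav, Itgb5, Pros1 and Cd300lf were higher with HMSNP (9.22% of all genes), and Gas6 and Mfge8 were lower (11%). Against SNP100, which was given at a lower dose, MSNP called 5 members beside 17.9% of all genes. Gas6 was higher by 1.90 and Mfge8 by 0.57 (10.4% of all genes), and Itgav (-1.61), Itgb5 (-0.85) and Pros1 (-0.38) were lower (7.53%). Between SNP50 and SNP100, whose dose and diameter both differ, 0 of 10 members and 0% of all genes were called by edgeR, while the unadjusted p lay below 0.05 for 867 of 19839 genes, none of them a member. DESeq2 called 1 gene and 0 members.

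The rest of the route was taken from 108 further genes in 10 lists, of which 107 were in the table and 95 were tested. MSNP called 49 of the 95, with 29 up and 20 down. HMSNP called 10 (8 up, 2 down), SNP50 called 5 (2 up, 3 down) and SNP100 called 4 (2 up, 2 down). HMSNP and MSNP differed in 46, of which 22 were higher with HMSNP and 24 lower. The backgrounds are those given above for the members. The MSNP counts of each list below therefore stand beside 22.8% of all tested genes (11.8% up and 11% down).

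**Figure D5:**
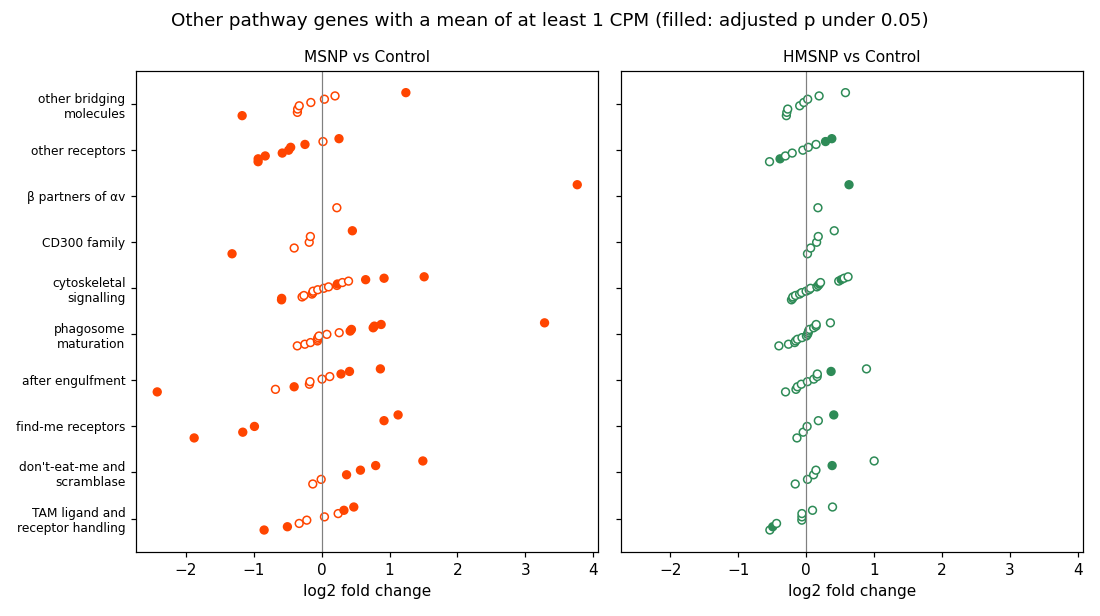
log2 fold change against the controls (horizontal axes) of the further genes with a mean of at least 1 CPM, by list (vertical axis), for MSNP (left) and HMSNP (right), where filled points are called at 0.05 on the adjusted p of edgeR's quasi-likelihood test. Under MSNP the points run from -2.42 for Mylip to 3.76 for Itgb3, and under HMSNP none of the called points passes 0.63 in either direction.

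Among 8 tested genes of the list of other bridging molecules, MSNP raised 1 and lowered 1, a share of 25% that lies near the 22.8% of all tested genes. Lgals3, galectin-3, which binds sugars on the dying cell and is a Mertk ligand, rose from a mean of 869 to 2053 CPM (1.24, SE 0.123, adjusted p 1.97e-06). HMSNP had 709.5 CPM and differed from MSNP by -1.53 (adjusted p 2.36e-07). C1qa, a chain of the complement opsonin C1q, fell by 1.17 with MSNP (adjusted p 0.00587). Its controls had 1.74, 1.94 and 3.44 CPM, and without 1 library the difference ranged from -1.32 to -0.787. The other C1q chains were not called with MSNP. C1qb had means of 1.54 CPM in the controls and 1.24 CPM with MSNP, and C1qc had 4.81 and 3.78 CPM. No gene of this list was called against the controls in the other groups.

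Of 13 other receptors tested, MSNP raised 3 (Itgb2, Cd93 and Stab2) and lowered 7. The lowered ones were Tyro3, Cd36, Havcr2 (TIM-3), Itgam, Scarb1, Stab1 and Scarf1, with Scarf1 at -0.93 (SE 0.191, adjusted p 0.00203). Stab1 overlapped, with 51.7, 50.4 and 29.8 CPM in the controls and 27.6, 29.7 and 30.8 CPM with MSNP. Of these MSNP calls, only those of Tyro3 and Scarf1 were followed singly through the alternatives. Cd93 had a mean of 0.436 CPM in the controls and 2.25 CPM with MSNP. Stab2 had 0 counts in every control, SNP100 and HMSNP library and 17, 10 and 11 with MSNP. It passed the count filter only through MSNP, so its place among the genes raised by MSNP, here and in the total above, carries no weight. Cd36, which binds oxidized lipids on dying cells, was lowered by both nonporous particles, from a mean of 244 CPM in the controls to 151 CPM with SNP100 (-0.69, SE 0.075, adjusted p 5.12e-04) and 127 CPM with SNP50 (-0.94, SE 0.075, adjusted p 3.55e-05). It was also lower with MSNP (174 CPM, adjusted p 1.64e-04). HMSNP raised Cd36 to 316 CPM (0.38, adjusted p 0.00778), a call lost without HMSNP replicate 2 (0.33) and with the length offset (0.19). Havcr2 fell by 0.44 with SNP50 (adjusted p 0.0257) and by 0.38 with HMSNP (adjusted p 0.0212), calls that were lost in 11 and 9 of 23 alternatives.

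Of the 17 tested genes of cytoskeletal signalling, 35.3% were called with MSNP, beside 22.8% of all tested genes. MSNP raised 4 and lowered 2, and the largest rise was that of Vav3, a Rac exchange factor, from 24.5 to 69.7 CPM (1.51, SE 0.170, adjusted p 7.70e-06). Src, a kinase downstream of integrins, rose by 0.92 with MSNP (adjusted p 3.88e-06) and by 0.52 with HMSNP (adjusted p 0.00555). Rac1, Rac2, Rhoa and Cdc42 were not called in either porous group.

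In the 15 tested genes of phagosome maturation, MSNP raised 6 and lowered none, and the 6 were lower with HMSNP than with MSNP. Tecpr1, which takes part in the fusion of autophagosomes with lysosomes, had 22.9, 21.8 and 16.8 CPM in the controls and 194, 203 and 202 CPM with MSNP (3.28, SE 0.115, adjusted p 4.14e-11). Like Gas6, it was also higher with SNP100 (0.67, adjusted p 0.00648) and SNP50 (0.66, adjusted p 0.00713), and HMSNP libraries (22.3, 21.2 and 24.5 CPM) overlapped the controls. The SNP100 call of Tecpr1 was lost without SNP100 replicate 2 (0.60) and the SNP50 call without SNP50 replicate 1 (0.64). Rubcn, needed for LC3-associated phagocytosis, rose by 0.88 with MSNP (adjusted p 8.05e-05). Dnase2a, whose window is shown above, rose by 0.78 with MSNP (SE 0.107, adjusted p 6.11e-05) and differed by -0.95 between HMSNP and MSNP (adjusted p 9.39e-06), and the remaining rises were those of Rab7, Atg7 and Map1lc3b.

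After engulfment, cells export cholesterol and change their transcription through nuclear receptors. Of 12 tested genes, MSNP raised 4 and lowered 3. Mylip, the ubiquitin ligase that removes the LDL receptor, fell from 17.2, 18.0 and 15.4 CPM to 3.34, 2.83 and 3.29 CPM (-2.42, SE 0.092, adjusted p 8.10e-11), and HMSNP had a mean of 18.2 CPM. Ppard, a lipid-sensing nuclear receptor, rose by 0.87 with MSNP (adjusted p 9.17e-07). Abcg1, a cholesterol exporter, rose by 0.52 with SNP100 (adjusted p 0.0153) and by 0.42 with SNP50 (adjusted p 0.0445), and Tgfb1 rose by 0.37 with HMSNP (adjusted p 0.0104). The Abcg1 call with SNP100 was lost without SNP100 replicate 1 (0.52) or 2 (0.50), and that with SNP50 in 17 of 23 alternatives. Mylip also fell by 0.39 with SNP100 (adjusted p 0.0381), a call lost in 19 of 23 alternatives. Odc1 fell by 0.43 with SNP50 (adjusted p 0.00713), a call lost without SNP50 replicate 1 (-0.42).

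Of the 7 receptors for find-me signals, MSNP lowered 4 and raised 2. Cx3cr1, the fractalkine receptor, fell from a mean of 806 to 219 CPM (-1.88, SE 0.096, adjusted p 1.49e-09). P2ry6, which senses UDP, fell from 145 to 64.8 CPM (-1.16, SE 0.068, adjusted p 5.81e-09). Neither was called with HMSNP, where the means were 813 and 132 CPM, and Gpr132 was the gene called there (0.41, adjusted p 0.0363, lost without HMSNP replicate 1 or 3 or Control replicate 1).

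Among inhibitory receptors and scramblases, MSNP raised 4 of 7 and lowered none. Sirpa, the receptor for the don't-eat-me signal Cd47, rose by 0.80 with MSNP (SE 0.069, adjusted p 4.56e-07) and by 0.38 with HMSNP (adjusted p 0.00408), from 832 to 1445 and 1085 CPM. Lilrb4a rose by 1.49 with MSNP (adjusted p 0.00669), but it has a near-identical neighbouring copy, so its counts are uncertain, and its controls spread from 34.1 to 111 CPM. In the 9 genes that process TAM ligands or signal from the receptors, MSNP raised 3 and lowered 2. Socs3, a suppressor of cytokine signalling, fell by 0.85 (SE 0.125, adjusted p 1.12e-04), and Vkorc1, which recycles the vitamin K that Gas6 and Pros1 need, by 0.50 (adjusted p 0.0418). The Vkorc1 call was lost in 10 of 23 alternatives, and without Control replicate 3 the difference was -0.17. Furin was the gene of this list that HMSNP changed, by -0.49 (SE 0.082, adjusted p 0.00237).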

How the data were processed

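Gene expression was measured by RNA sequencing in 15 libraries of the RAW 264.7 line, grouped by the sample labels, with doses and diameters taken from the study's methods. The authors deposited raw counts per gene and library, neither normalized nor pooled, made from poly(A) RNA with a directional kit. The submitters' processing notes name cutadapt 1.16, STAR 2.7.9a, featureCounts 1.6.3 and the genome GRCm39; the annotation and the counting options are not given in the sources used here. Symbols, positions and exon lengths came from GENCODE vM39, which held 56630 of the 57186 identifiers, and the table had 0 per-sample columns that were left out. Total counts lay between 29369934 and 42617812 per library.

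Analysis used edgeR 4.0.16 under R 4.3.3. TMM normalization, a filter of at least 10 summed counts, 1 model of all 15 libraries and the quasi-likelihood test with Benjamini-Hochberg adjustment over 19839 genes were used, with a threshold of 0.05. Standard errors were the absolute log2 fold change over the root of F, with 10 residual degrees of freedom before moderation. The steps were tested on simulated data. The members, the pathway lists and the motifs were chosen with earlier results of these data known. Named beside the members are their relatives and partners, up to 2 called genes of each list and treatment with the largest change and a mean of at least 1 CPM, and the genes most and least like Gas6. Promoter windows were read from GRCm39, and no protein sequence was used here. Same-numbered replicates of different groups did not deviate together, so the replicate number was not in the model. Overlapping genes held at most 213 counts over all libraries (an antisense gene of Lrp1).

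The alternatives were DESeq2 1.42.0 with its own size factors, RLE normalization, filterByExpr, no filter, fits restricted to the 6 libraries compared, a block for the replicate number, an offset that removes each library's trend with exon length (lowess, span 0.3), and leaving out each library. The offset without Control replicate 3 was added after the data were seen.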

Additional observations from a re-analysis of the deposited data

How the results depend on the processing

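Among the 1288 alternative values of the members' log2 fold changes, 1183 kept their direction and side of the threshold, 46 lost a call, 32 gained one and 27 changed sign, none of the last being called. For the further genes, only differences already called in the main fit were followed, so no call could be gained and a change of sign was unlikely. Of their 1403 values, 1238 were kept, 165 lost the call and 0 had the opposite sign. These numbers therefore cannot be compared with those of the members. In fits restricted to the 6 libraries compared, the members called against the controls dropped to 0 with SNP100, SNP50 and HMSNP and to 4 with MSNP, the further genes called to 0 with SNP100, SNP50 and HMSNP, and all genes called to 0, 1, 77 and 2257 in the order SNP100, SNP50, HMSNP and MSNP. Where no controls entered, the same restriction raised the calls, to 9 members and 7142 genes in all for HMSNP against MSNP (from 6 and 4010), with Mertk, Lrp1 and Elmo1 gained, and to 7 members and also 7142 genes for MSNP against SNP100 (from 5 and 3549). DESeq2 called 3 members with SNP100, 19 further genes with HMSNP, and 496, 680 and 1945 genes in all with SNP100, SNP50 and HMSNP. The filterByExpr filter called 2 members with SNP100, and RLE normalization 1 with SNP50. The length offset called 4 members and 17 further genes with HMSNP. Together with leaving out Control replicate 3, it called 3 members and 14 further genes with SNP100, 4 and 29 with SNP50, 5 and 22 with HMSNP, 1 further gene between SNP50 and SNP100, and 1160, 3498 and 2011 genes in all against the controls. The causes were not tested.

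Leaving out 1 library, the members called ranged from 1 to 3 with SNP100 and with SNP50, 6 to 8 with MSNP, 2 to 4 with HMSNP, 5 to 7 for MSNP against SNP100, and 4 to 8 for HMSNP against MSNP. The further genes called ranged from 1 to 13 with SNP100, 1 to 31 with SNP50, 43 to 62 with MSNP, 5 to 32 with HMSNP, 34 to 60 for MSNP against SNP100 and 34 to 60 for HMSNP against MSNP. All genes called ranged from 57 to 1012 with SNP100, 87 to 3713 with SNP50, 3423 to 6522 with MSNP, 493 to 4940 with HMSNP, 0 to 85 for SNP50 against SNP100, 2629 to 6483 for MSNP against SNP100 and 3162 to 6644 for HMSNP against MSNP. The highest of these counts of all genes came without Control replicate 2 for MSNP and HMSNP against the controls, and without Control replicate 3 for the other 5 comparisons.

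No value of the opposite sign was called. For Itgav with SNP100 and Mertk with SNP50, values of the original sign were called, Itgav without Control replicate 3 (-0.40) and with the length offset as well (-0.37), and Mertk with both changes (-0.48, adjusted p 0.0395). Without 1 library they ranged from -0.29 to 0.32 for Axl (HMSNP against MSNP), and against the controls from -0.122 to 0.250 for Elmo1 with SNP50, -0.0141 to 0.0586 for Gas6 with HMSNP, -0.404 to 0.0472 for Itgav with SNP100, -0.0895 to 0.0379 for Mfge8 with HMSNP, -0.0656 to 0.0874 for Pros1 with SNP100 and -0.144 to 0.00930 with SNP50. For Lrp1 they ranged from -0.29 to 0.53 with MSNP, -0.11 to 0.72 with SNP100 and -0.0604 to 0.767 with SNP50, and for Mertk from -0.41 to 0.12 with HMSNP, -0.464 to 0.0519 with SNP100 and -0.443 to 0.0721 with SNP50. The length offset gave -0.11 for Lrp1 with MSNP and -6.81e-04 for Pros1 with SNP100. Without Control replicate 3 as well, it gave -0.26 for Lrp1 with MSNP, -0.0415 with SNP100, -0.00957 for Elmo1, -0.0208 for Gas6, 0.0386 for Mfge8 and -0.0613 for Pros1.

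The replicate numbers are shared by all groups. Same-numbered libraries had correlations of their deviations from -0.13 to 0.12, and 5 of 15 libraries correlated best with their own number, so the numbers were not taken as a pairing. With the replicate number as a block, the members called with SNP50 went from 2 to 1 (Cd300lf, adjusted p 0.0798), the genes called in all with SNP50 from 280 to 180, and between HMSNP and MSNP the adjusted p became 0.0695 for Cd300lf and 0.0375 for Mertk.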
